A study of Homo sapiens with 12 samples.

Results

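The 500 largest stitched enhancer clusters of RPMI 8226, an established multiple myeloma cell line, are described here across 12 CUT&RUN libraries for H3K27ac, the acetylated histone mark of active enhancers and promoters. CUT&RUN releases the DNA under an antibody with a tethered nuclease, and MACS3 turned the reads of each library into a list of broad peaks. Cells had either CEBPB, which encodes the transcription factor C/EBPβ, knocked out (KO) or a scramble control (SCR), and were treated for 2 h with 10 µM dexamethasone, a synthetic glucocorticoid, or with DMSO, its vehicle. The groups are KO with dexamethasone, KO with DMSO, SCR with dexamethasone and SCR with DMSO, with 3 libraries each. The labels do not say how the gene was disrupted, whether the KO cells were a clone or a pool, or whether the replicate libraries stem from separate cultures. An effect of the targeted gene and any other difference between the KO and SCR cell populations therefore cannot be told apart, and p-values measure only the spread between these libraries.

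The clusters were selected on the peak coverage of the SCR DMSO libraries alone. Bases on chromosomes 1 to 22 and X that were covered in at least 2 of the 3 lists formed 46003 intervals. Intervals within 1 kb of either end of a protein-coding gene were dropped, which left 34960 intervals with 33.8 Mb. Neighbouring intervals were joined over a fixed maximal gap, between the 5 and 25 kb tried as alternatives, into 21719 clusters, and these were ranked by the bases of their intervals. The 500 of highest rank were kept, 2.30% of the clusters with 15.2% of the interval length. The smallest ones kept, near KLF13 and SLC22A5, held 6.881 and 6.880 kb of intervals, and the next below, at PTPN18 and near AGPAT2, held 6.877 and 6.875 kb. Nothing marks a step there, so membership near the threshold rests on a few bases.

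Stitched clusters of this kind are often called super-enhancers when they stand out in a ranking of H3K27ac or Mediator. Such domains are dense in transcription factor binding sites and tend to lie at genes that define a cell's identity, and in myeloma they include the immunoglobulin loci and regulators of plasma cell growth. Glucocorticoids act through the glucocorticoid receptor, NR3C1, which binds enhancers directly, and C/EBPβ is a basic leucine zipper factor known to bind many of the same enhancers. Each cluster below is called by the protein-coding gene that overlaps it most or, failing that, by the nearest one. The gene is a label, and it was not shown to be a target.

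No genome came with the peak lists, so the sequence of the clusters themselves is not shown. The promoters below belong to genes that label clusters described below, and they were chosen after the values were seen. FAT1, RYR2 and AUTS2 are shown because the promoter lost its peak in KO cells along with all or, at RYR2, nearly all of the cluster described. TRIO and SIPA1L2 are shown because the promoter kept its peak. Each is the RefSeq sequence (GRCh38.p14) of the 250 bases before the gene's start, 5′ to 3′ on the gene's strand, with CG pairs in capitals.
FAT1, chr4:186726697-186726946, minus strand: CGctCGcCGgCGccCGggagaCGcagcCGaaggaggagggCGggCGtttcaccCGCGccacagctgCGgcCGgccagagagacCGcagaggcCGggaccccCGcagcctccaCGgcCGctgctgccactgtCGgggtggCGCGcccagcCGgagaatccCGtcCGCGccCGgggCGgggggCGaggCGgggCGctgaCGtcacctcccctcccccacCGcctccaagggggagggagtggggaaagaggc
RYR2, chr1:237041934-237042183, plus strand: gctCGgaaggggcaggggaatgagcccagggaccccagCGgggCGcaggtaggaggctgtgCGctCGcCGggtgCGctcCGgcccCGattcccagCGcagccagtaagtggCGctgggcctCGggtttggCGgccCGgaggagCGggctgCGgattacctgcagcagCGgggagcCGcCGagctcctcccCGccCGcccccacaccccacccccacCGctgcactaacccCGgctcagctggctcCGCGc
AUTS2, chr7:69598225-69598474, plus strand: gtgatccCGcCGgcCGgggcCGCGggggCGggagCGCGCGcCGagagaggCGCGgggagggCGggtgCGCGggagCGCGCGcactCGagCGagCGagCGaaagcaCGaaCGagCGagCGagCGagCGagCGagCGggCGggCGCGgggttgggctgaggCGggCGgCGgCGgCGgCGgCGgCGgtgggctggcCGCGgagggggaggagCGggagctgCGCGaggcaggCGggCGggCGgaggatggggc
TRIO, chr5:14143092-14143341, plus strand: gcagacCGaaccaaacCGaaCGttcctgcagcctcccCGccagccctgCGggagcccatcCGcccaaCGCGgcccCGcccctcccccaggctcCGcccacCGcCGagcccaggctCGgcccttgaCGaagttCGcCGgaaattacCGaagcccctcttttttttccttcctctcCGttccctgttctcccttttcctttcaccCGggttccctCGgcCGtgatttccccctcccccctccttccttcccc
SIPA1L2, chr1:232630134-232630383, minus strand: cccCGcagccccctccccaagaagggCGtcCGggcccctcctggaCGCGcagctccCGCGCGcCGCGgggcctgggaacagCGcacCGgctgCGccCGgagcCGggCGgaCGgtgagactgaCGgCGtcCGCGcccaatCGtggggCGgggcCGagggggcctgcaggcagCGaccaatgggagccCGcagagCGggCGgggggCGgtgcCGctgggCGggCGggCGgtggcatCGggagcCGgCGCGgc

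CG pairs numbered 32, 25 and 49 in the FAT1, RYR2 and AUTS2 promoters and 21 and 37 in those of TRIO and SIPA1L2, against a median of 11 over the same bases of the 27195 promoters in the table. The promoters that lost their peak and those that kept it thus overlapped in CG content. The promoters were searched on both strands for AGAACA, a half-site of the glucocorticoid receptor, and TTGCNNAA, a form of the C/EBP motif. The first had 1 match, in the TRIO promoter, and the second had 0 in the 5. Over the same 250 bases of all promoters, 12.4% held the first and 9.12% the second.

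A cluster of the 500 held a median of 8.92 kb in 6 intervals spread over 42.7 kb. Interval length ran between 6.88 and 57.1 kb, the number of intervals between 2 and 24, and the span between 10.2 and 149 kb. The other clusters held a median of 0.967 kb, and 68.8% of all clusters were a single interval. Since the rule ranked clusters by this length, the contrast is only a description. The peaks were longer in the 500, with a median of 1251 to 1486 bp per library against 862 to 1021 bp in other clusters. They were not more enriched. The authors' fold enrichment, averaged over peaks by their length, was 3.01 to 3.27 in the 500 and 3.61 to 4.02 in other clusters, so the 500 stood apart by the breadth and number of their peaks.

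The largest cluster lay inside TRIO, at chr5:14148898-14297742, with 24 intervals of 57.1 kb. Peaks covered 56.3, 57.8 and 53.8 kb of it with KO dexamethasone, 51.1, 55.6 and 58.7 kb with KO DMSO, 60.6, 55.8 and 57.4 kb with SCR dexamethasone and 62.5, 54.0 and 54.0 kb with SCR DMSO. The groups overlapped throughout. DOK6, an adaptor of receptor tyrosine kinases, labelled the second at chr18:69537277-69648815, with means of 29.6 ± 0.86, 29.2 ± 0.73, 31.2 ± 2.4 and 32.9 ± 4.2 kb in the same order of groups (SD, n = 3 each). VOPP1 labelled the third and TRPS1, a GATA-type repressor, was the nearest gene to the fourth, at 854 kb. SIPA1L2, TENT5C, COBL, TMTC1, ERN1, LOC124907867, INPP4A and TMEM121 labelled ranks 5 to 12.

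Several of the 12 are loci known in plasma cells. TENT5C, a poly(A) polymerase gene often mutated in myeloma, had 22.1 ± 0.94 kb with KO dexamethasone, 24.5 ± 1.2 kb with KO DMSO, 22.1 ± 1.0 kb with SCR dexamethasone and 23.9 ± 1.0 kb with SCR DMSO (SD, n = 3 each). ERN1 encodes IRE1α, the stress sensor that activates XBP1, and its cluster had 26.1, 24.8 and 24.9 kb with KO dexamethasone, 28.1, 27.3 and 29.5 kb with KO DMSO, 31.3, 23.7 and 26.0 kb with SCR dexamethasone and 29.4, 23.4 and 23.2 kb with SCR DMSO. The cluster of rank 12 is labelled TMEM121 but spans immunoglobulin heavy chain segments, and another, labelled RPIA, spans IGKC, the kappa light chain constant region. IGLL5, in the lambda light chain locus, labelled rank 26. The cluster of rank 10 spans the long non-coding RNA gene MIR4435-2HG. Of these, SIPA1L2 and the IGKC cluster are taken up again below, since they passed a test. TMTC1 is taken up as a cluster with no covered base in KO cells, described by its levels alone.

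**Figure D1:**
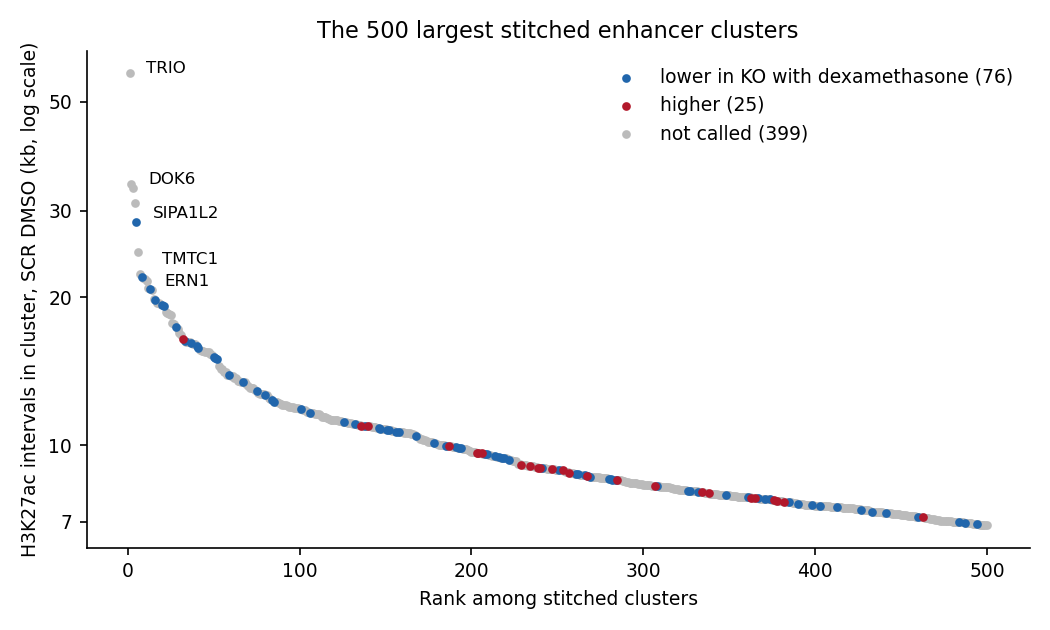
Rank (horizontal axis) and interval length in SCR DMSO (kb, log scale, vertical axis) of the 500 clusters. Blue points are the 76 clusters lower and red points the 25 higher with KO dexamethasone than with SCR dexamethasone, and both are spread along the ranks, from rank 5 downwards for the lower ones.

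Of the 500 clusters, 241 lay inside 1 gene, 118 partly overlapped a gene and 141 lay outside, which is 48.2, 23.6 and 28.2%. Among the other clusters the shares were 53.2, 3.56 and 43.3%. The 500 had 437 different labels, and 46 labels had more than 1 cluster. Chromosomes 1 and 2 held 47 clusters each, and chromosome 15 had 32 of its 942 clusters among the 500, the highest share at 3.40%.

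The gene lists drawn up for this tissue and treatment met few of the clusters. Within 25 kb of a cluster lay 3 of 30 plasma cell genes (SDC1, TNFRSF13B and TXNDC5), 3 of 40 genes induced by glucocorticoids (FOXO3, GADD45A and BCL2L11), 2 of 24 genes of NF-κB and inflammation (TRAF1 and MAP3K14), 1 of 20 of the unfolded protein response (ERN1) and 1 of 20 immediate early genes (IER5). The same distance held 607 of all 19974 protein-coding genes, 3.04%. Of the 9 genes of the C/EBP family and the glucocorticoid receptor, and of 24 housekeeping genes, 0 had a cluster that near. The cluster nearest to NR3C1 lay inside it at rank 3273 and that nearest to CEBPB lay 11.0 kb away at rank 4755. The lists for other cells gave 1 of 14 B cell genes (BLK), 1 of 14 T cell genes (THEMIS), 0 of 14 myeloid genes and 0 of 13 stromal or epithelial genes. Of 7 plasma cell markers with a promoter entry, 6 were covered in all 12 libraries, including IRF4, PRDM1, XBP1 and SDC1, as was 1 of 6 B cell markers (BACH2), 1 of 6 T cell markers (CD8A), 0 of 6 myeloid markers and 1 of 2 stromal or epithelial markers (KRT8). PAX5 and EBF1, which define B cells, and CD3D of T cells were listed at 0 in all 12. Covered myeloid markers numbered 2 in each KO dexamethasone library, 1 to 3 with KO DMSO, 0 to 3 with SCR dexamethasone and 1 to 4 with SCR DMSO.

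Libraries held 41164 to 56421 peaks that covered 48.0 to 66.4 Mb, and the number of reads behind them is unknown. The 500 clusters had 4.02 to 4.33 Mb covered with KO dexamethasone, 4.25 to 4.56 Mb with KO DMSO, 4.65 to 5.18 Mb with SCR dexamethasone and 5.08 to 5.57 Mb with SCR DMSO. The KO libraries lay below the SCR libraries throughout, although the covered length of the whole library overlapped between the genotypes. The clusters took 7.07 to 7.84% of the covered length in the 6 KO libraries and 8.39 to 9.71% in the 6 SCR libraries. SCR DMSO libraries defined the clusters, so part of its lead, and that of SCR over KO, is built in: a cluster present only in KO cells could not enter. The CEBPB gene was covered over its whole length of 2108 bp in all 12 libraries, which does not check the knockout, since H3K27ac does not report on an edited coding sequence.

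Applied to each other group, the same rule gave other sets of 500. Those of KO dexamethasone, KO DMSO and SCR dexamethasone overlapped 290, 312 and 372 of the 500, or 58.0, 62.4 and 74.4%. Read the other way, 57.2, 61.8 and 73.8% of those sets overlapped the 500. The largest cluster was of similar size in each, with 56.1, 54.7 and 57.8 kb.

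The comparison of KO with SCR cells under dexamethasone asks how the clusters differ between the genotypes when both have the drug, and it uses no library that defined them. With KO dexamethasone, 76 of the 500 clusters were lower than with SCR dexamethasone and 25 were higher, by limma on log2(covered bp + 500) with adjusted p under 0.05. That is 15.2 and 5.0% of the 500, against 7.57% lower and 5.55% higher of the 18793 clusters tested. The 500 bp added before the log limit the change a small cluster can show, so the shares compare clusters of unlike size. Clusters with no covered base in KO cells are included on both sides, 22 of the 500 and 975 of the 18793. By a plain count, the 3 KO values lay below the 3 SCR values in 142 clusters (28.4%, against 16.4% of all tested) and above them in 39 (7.8%, against 10.9%). At an unadjusted p under 0.05 there were 166 clusters in either direction (33.2%, against 29% of all tested). The median log2 difference was 0.02 in the 500 and 0.11 in all clusters tested. Quantile normalization moves these medians, which were -0.07 in the 500 and 0.00 in all clusters without normalization, and -0.12 and -0.03 after scaling to the covered length. The split moved with it, to 8 higher and 83 lower without normalization and 7 higher and 82 lower after scaling. The split also depends on which libraries built the clusters: with bases covered in 6 of the 12 libraries, 38 of the largest 500 were higher and 41 lower. With a filter of 6 covered libraries of 9, which clusters empty in KO cells cannot meet, 8 were higher and 34 lower. Without 1 SCR dexamethasone library, 6 or 7 clusters were higher and 34 to 37 lower, as those empty in KO cells then missed the filter of 3 covered libraries. With a filter of 2 there were 66 to 68 lower and 16 to 19 higher. Without replicate 1 or 3 of KO dexamethasone, 10 and 11 were higher.

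The clusters called lower were graded. Of the 76, 33 had under 10% of the mean covered length of SCR dexamethasone, 32 had 10 to 50%, and 11 had more, up to 79.0%. All 3 KO DMSO values also lay under the SCR dexamethasone values in 75 of the 76. The call used these same SCR values, and 22 of the 76 had no covered base with KO DMSO, so this is no separate support. Lower clusters lay at high and low ranks but were more frequent among the largest, with 20 among ranks 1 to 100 and 9 among the last 100 ranks. A larger cluster can show a larger difference on this log scale, and the part of size in the calls was not tested. Ranks 1 to 50 held 12. The 76 carried 57 labels. They lay inside a gene in 47 cases.

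In 22 clusters, 4.4% of the 500, no KO library had a covered base, against 12.8% of all clusters. These 22 passed the filter on covered libraries through SCR dexamethasone alone and so had to differ. They are given as levels, with no fold and no p. Of the other 478 clusters, 54 were lower, among them the RYR2 and DSCAM clusters below, which also needed SCR dexamethasone to meet the filter. Over all clusters, 975 passed through SCR dexamethasone alone. The share lower among the rest was not counted, so whether 54 of 478 is many cannot be said. The largest of the 22 was inside TMTC1, which encodes a mannosyltransferase of the endoplasmic reticulum, at chr12:29657877-29751826. It was listed at 0 in the 3 KO dexamethasone and the 3 KO DMSO libraries, against 22.2, 22.7 and 20.3 kb with SCR dexamethasone and 24.6, 19.1 and 20.1 kb with SCR DMSO. All 16 of its intervals were empty in KO cells. A cluster at either side of it, of ranks 374 and 385 and also labelled TMTC1, was listed at 0 in KO cells as well.

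FAT1, an atypical cadherin, gave the next at chr4:186618048-186715546. It was listed at 0 in all 6 KO libraries, against 22.1, 20.8 and 22.8 kb with SCR dexamethasone and 25.2, 16.9 and 19.3 kb with SCR DMSO. Beyond the promoter of FAT1 the clusters of ranks 20 and 37 kept a remnant, with 3.53 kb with KO dexamethasone against 20.5 kb with SCR dexamethasone, and 2.57 against 16.9 kb. The loss was thus complete in one of 3 neighbouring clusters and partial in the others.

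PLEKHG1 had a cluster at chr6:150707399-150788782 that was listed at 0 in all 6 KO libraries, against 19.0, 17.9 and 18.8 kb with SCR dexamethasone. PIEZO2, a mechanically gated ion channel, had one at chr18:11071402-11138877 that was listed at 0 in KO cells, against 15.3, 18.1 and 13.7 kb with SCR dexamethasone. AUTS2, a gene of neural development, and DOCK5, a Rac exchange factor, had clusters at chr7:70668465-70729794 and chr8:25214811-25259327 listed at 0 in KO cells, against means of 11.3 ± 1.9 and 11.0 ± 0.44 kb with SCR dexamethasone (SD, n = 3 each). None of these 4 had any base left under either treatment.

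The clusters in RYR2 and DSCAM kept single short peaks. In RYR2, the calcium release channel of heart muscle, the cluster at chr1:237141681-237206297 had 0, 0.296 and 0 kb with KO dexamethasone, 0, 0.355 and 0 kb with KO DMSO, and 19.9, 16.2 and 16.1 kb with SCR dexamethasone. In DSCAM, a neuronal adhesion molecule, the cluster at chr21:40615799-40700041 had 0, 0 and 0.283 kb with KO dexamethasone, 0, 0 and 0.992 kb with KO DMSO, and 19.4, 16.6 and 15.7 kb with SCR dexamethasone. The KO and SCR groups did not overlap in either, and both clusters met the filter through their SCR dexamethasone values, so no p is given for them. The remaining clusters listed at 0 were labelled CDH6, CDH4, ANKRD30A, ARHGAP42, TENM3, LOC112267897, SVIL (2 clusters), RYR2 (rank 327), ACSS3, ETS1 (462 kb away), LOC124901483, GALNT17 and PRL.

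**Figure D2:**
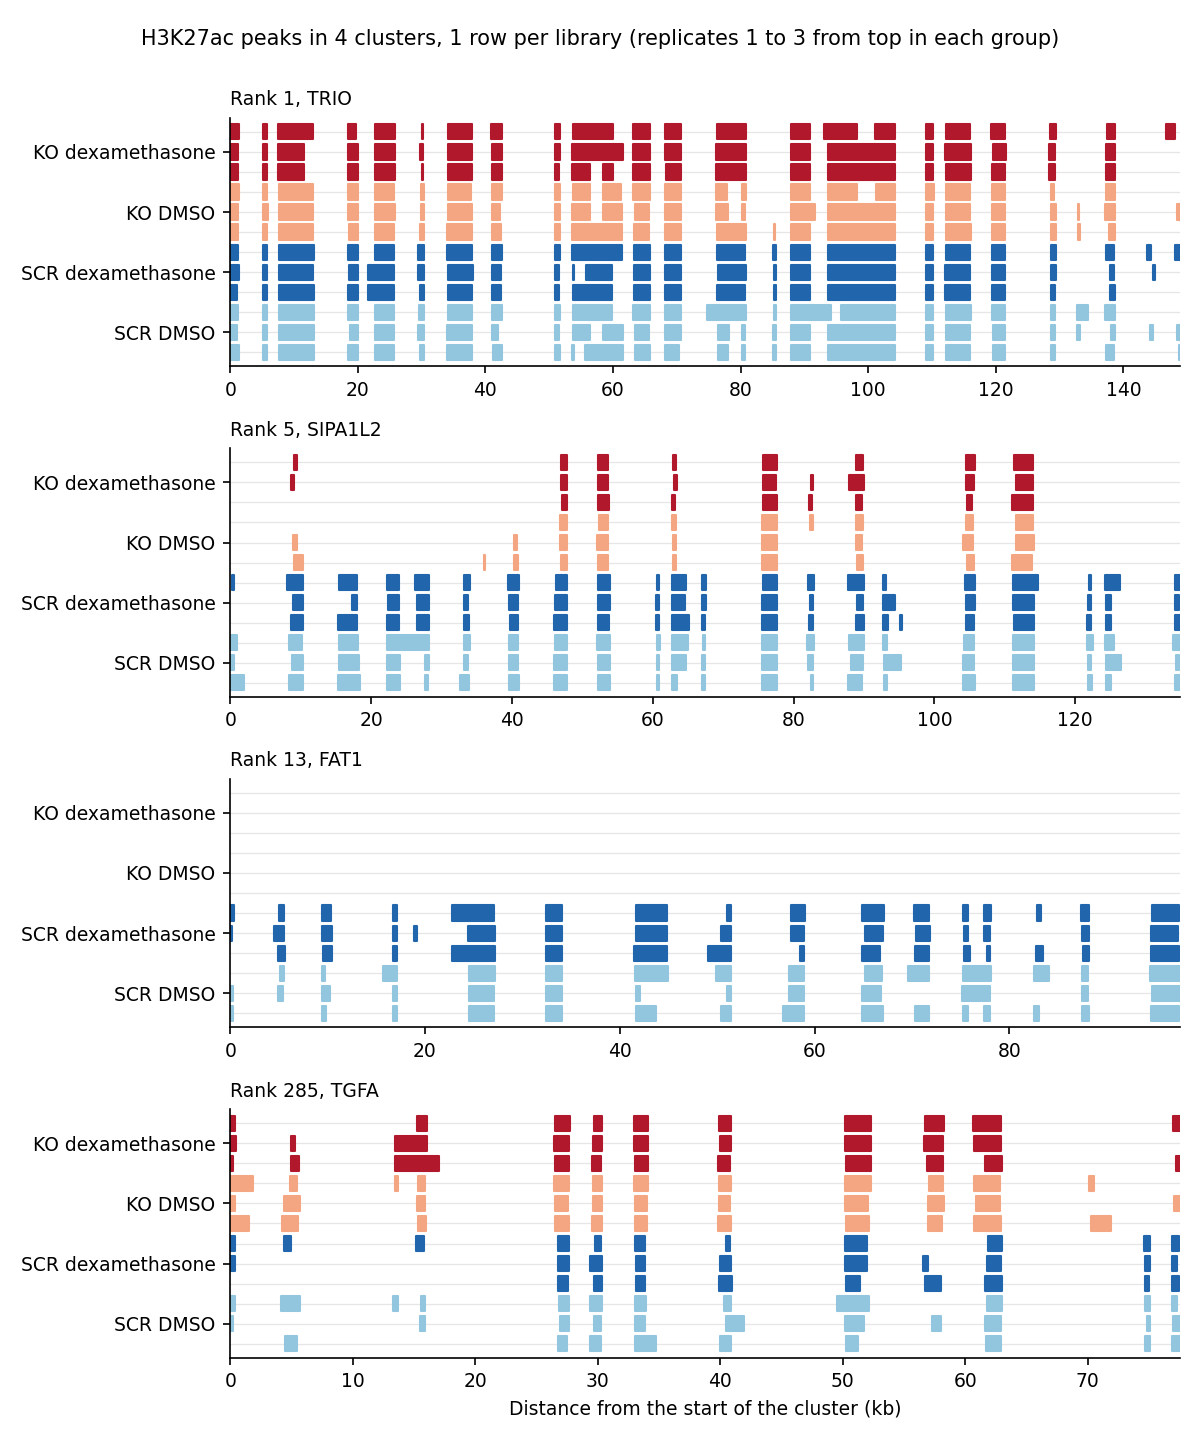
Peaks along 4 clusters, as distance in kb from the cluster's start, with 1 row per library grouped as KO dexamethasone, KO DMSO, SCR dexamethasone and SCR DMSO from top to bottom. TRIO had 21 of its 24 intervals covered in all 12 libraries, SIPA1L2 kept 7 of 21 intervals in all 6 KO libraries, FAT1 kept 0 of 15, and TGFA had more covered length in KO libraries.

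Around the 22 clusters, the stretch that reaches to the nearest KO peak on either side was 98.7 to 2258 kb long, with a median of 549 kb over the 19 distinct stretches. Each held 4 to 84 intervals covered in at least 2 SCR dexamethasone libraries. The longest ran over AUTS2 and GALNT17, with 84 such intervals of 91.0 kb. That around the FAT1 cluster was 488 kb long, held 28 intervals of 38.2 kb, and touched the genes F11, MTNR1A and FAT1. Around the TMTC1 cluster of rank 8 it was 141 kb.

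Promoters were followed for the 362 labels with an entry in the RefSeq table. Of these, 239 were covered in all 3 SCR dexamethasone libraries, and 9 of the 239 had no covered base in any KO library: FAT1, MAST4, RYR2, AUTS2, GRIN2A, TMEM178B, ARHGAP42, NEURL1B and GALNT17. Over all promoters covered with SCR dexamethasone, 123 of 11001 did so. Of the labels of lower clusters, 25 had a promoter covered with SCR dexamethasone, and 8 of the 25 promoters were lost while 15 were covered in all 6 KO libraries. The FAT1 promoter printed above lay 11.1 kb from its cluster, and that of AUTS2 1070 kb away within the same empty stretch. That of RYR2 lay 99.4 kb from the cluster described and 28.2 kb from its nearest one, of rank 269. The promoters of TRIO and SIPA1L2, 5.51 and 9.25 kb from their clusters, were covered in all 12 libraries. For SIPA1L2 the promoter kept its peak although the cluster shrank.

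That cluster, at chr1:232486002-232620837, was the largest of those called lower. SIPA1L2 encodes a relative of the Rap GTPase activator SIPA1. Peaks covered 10.1, 11.2 and 9.79 kb with KO dexamethasone, 9.87, 10.8 and 11.6 kb with KO DMSO, 30.8, 24.8 and 27.1 kb with SCR dexamethasone and 33.2, 29.9 and 28.1 kb with SCR DMSO. Under dexamethasone the KO mean was 37.7% of the SCR mean, and the KO and SCR groups did not overlap. The log2 difference was -1.28 ± 0.06 (SE; adjusted p = 6.3e-06, limma). Of its 21 intervals, 11 were empty in all 6 KO libraries and 7 were covered in all 6. Some of the empty ones lay in runs, intervals 3 to 6 and 19 to 21 in order of position. Intervals 10, 12 and 16 were empty between covered ones.

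Some labels had more than 1 lower cluster. On chromosome 18, 8 of 13 clusters were lower, 1 of them with no covered base in KO cells. The share lower among all 462 clusters of that chromosome was not counted, so the 8 cannot be read as a trait of its large clusters. The 8 came from only 2 genes, with 4 in PTPRM, a receptor tyrosine phosphatase, and 4 in PIEZO2. The PTPRM clusters kept 30.2 to 48.9% of the SCR dexamethasone mean, and the PIEZO2 clusters kept 0 to 58.1%. In DSCAM, 3 of 5 clusters were lower, with 0.547, 3.35 and 44.8% left, and the other two had adjusted p-values of 0.13 and 0.89. MAST4, a microtubule-associated kinase, labelled 3 lower clusters, with 43.8, 2.48 and 0% left. The percentages at or near 0 are levels only. The PIEZO2 cluster of rank 41 is one of the 22 that had to differ. The DSCAM cluster of rank 21, with 0.547% left, met the filter through SCR dexamethasone. The MAST4 cluster at 0% had no covered base with KO dexamethasone. Over the 500 clusters, 509 of 3374 intervals (15.1%) were empty in all 6 KO libraries, close to the 15.3% of the intervals of other clusters. More of them were covered in all 6 KO libraries, 60.9% against 49.8%. With the 22 empty clusters set aside, 344 of 3209 intervals were empty in KO cells.

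Clusters called higher differed less. Covered length takes in every peak of the span, also those between the intervals, so a higher value need not lie in the intervals. The 25 had 113 to 192% of the SCR dexamethasone mean, with a median of 133%. All 3 KO dexamethasone values lay above the SCR dexamethasone values in 21 of them, and all 3 KO DMSO values did so in 19. The call used these same SCR values, so neither count is separate support. The largest difference was at chr2:57386183-57433709, with VRK2, a serine/threonine kinase gene, as the nearest gene at 474 kb. This cluster had 11.9, 14.3 and 10.9 kb with KO dexamethasone, 12.6, 11.3 and 8.63 kb with KO DMSO, 7.86, 6.28 and 5.20 kb with SCR dexamethasone and 6.84, 7.02 and 7.79 kb with SCR DMSO. The KO libraries were above the SCR libraries throughout. The log2 difference was 1.00 ± 0.18 (SE; adjusted p = 0.0099, limma). Without SCR dexamethasone replicate 2 or 3 the adjusted p was 0.065 and 0.069, with log2 differences of 1.00 and 0.85. With intervals joined over 5 kb at most the VRK2 difference was 0.38 (adjusted p = 0.45), and inside kept intervals only 0.46 (adjusted p = 0.081, limma).

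Near TGFA, which encodes a ligand of the EGF receptor, the cluster at chr2:70341357-70418855 had 11.6, 13.2 and 13.5 kb with KO dexamethasone, 13.2, 11.6 and 14.3 kb with KO DMSO and 8.19, 8.08 and 7.77 kb with SCR dexamethasone. The log2 difference was 0.76 ± 0.09 (SE; adjusted p = 0.00081, limma). The TGFA call was lost with intervals joined over 5 kb at most (log2 0.21, adjusted p = 0.061) and inside kept intervals only (log2 0.18, adjusted p = 0.097, limma). IL6R encodes the receptor of interleukin 6, a growth factor of myeloma cells. Its cluster at chr1:154419663-154492634 had 13.5, 15.2 and 14.5 kb with KO dexamethasone, 14.8, 14.7 and 14.4 kb with KO DMSO and 10.8, 9.17 and 10.0 kb with SCR dexamethasone. Its KO and SCR values under dexamethasone did not overlap, and the log2 difference was 0.63 ± 0.07 (SE; adjusted p = 0.00047, limma). With intervals joined over 5 kb at most, the IL6R cluster had a log2 difference of -0.27 (adjusted p = 0.53), and its call was also lost with strong peaks only (log2 1.20, adjusted p = 0.092) and with bases in all 3 SCR DMSO libraries (log2 0.43, adjusted p = 0.056, limma).

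The IGKC cluster at chr2:88831815-88870068 had 14.9, 12.8 and 13.6 kb with KO dexamethasone, 13.9, 13.4 and 13.4 kb with KO DMSO and 10.7, 9.09 and 9.50 kb with SCR dexamethasone. All of its 8 intervals were covered in all 12 libraries. The longest, of 3.02 kb, had 3017 bp in each KO dexamethasone library and 3017, 2874 and 2990 bp with SCR dexamethasone. Peaks between the intervals count as well, and their part in the difference was not measured. The cluster's log2 difference was 0.59 ± 0.09 (SE, adjusted p = 0.0039, limma). Over 31 alternatives, inside kept intervals only among them, it was 0.31 to 0.68 and stayed called. SMYD3, ADAM23, SLC35D4 and IRX2 completed the 8 largest, with log2 differences of 0.66, 0.61, 0.56 and 0.56. The calls of SLC35D4 and IRX2 were lost both without normalization and after scaling to covered length, and those of SMYD3 and ADAM23 without normalization. The direction of all 8 held under both. Leaving out 1 library also ended these 4 calls: ADAM23 without any SCR dexamethasone library (adjusted p up to 0.086), SMYD3 without replicate 2 or 3 of SCR dexamethasone (up to 0.088), SLC35D4 without any SCR dexamethasone library or replicate 1 of KO dexamethasone (up to 0.14), and IRX2 without replicate 1 or 2 of SCR dexamethasone, any KO dexamethasone library or replicate 2 or 3 of KO DMSO (up to 0.19). Over all 31 alternatives, SMYD3 stayed called in 27 (log2 0.15 to 0.87), ADAM23 in 22 (0.16 to 0.71), SLC35D4 in 16 (0.18 to 0.67) and IRX2 in 14 (0.24 to 0.72).

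**Figure D3:**
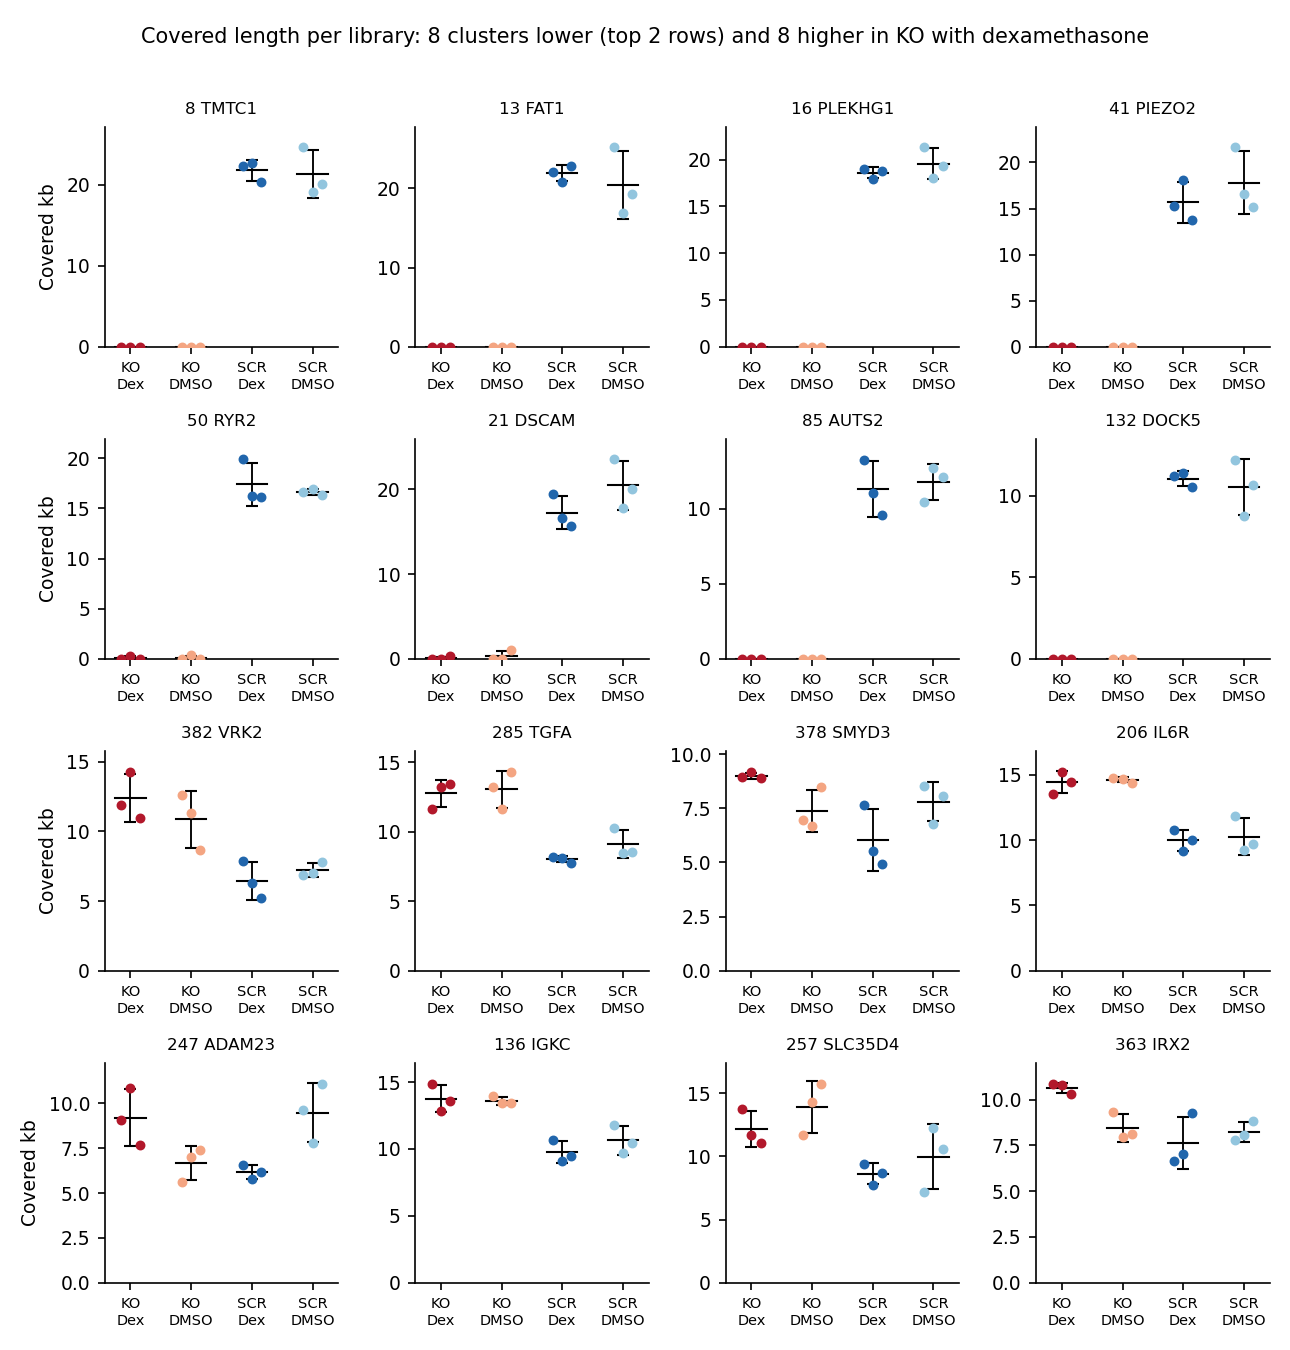
Covered length (kb) per library in the 8 clusters with the largest decrease (top 2 rows) and the 8 with the largest increase with KO dexamethasone against SCR dexamethasone. Points are libraries, black lines the mean ± SD, n = 3, and KO groups stand left of SCR groups. Of the lower clusters, 6 are at 0 kb in all 6 KO libraries. All 8 lower ones met the filter on covered libraries through SCR dexamethasone, so their decrease and its order are a description only.

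Of the clusters near listed genes, that of GADD45A and 1 of the 2 at BLK passed the test between the genotypes. GADD45A is a stress gene induced by glucocorticoids, and its cluster, inside the neighbouring gene GNG12, had 13.3 ± 0.51 kb with KO dexamethasone, 11.5 ± 0.83 kb with KO DMSO, 9.68 ± 1.1 kb with SCR dexamethasone and 9.57 ± 1.2 kb with SCR DMSO (SD, n = 3 each; log2 difference 0.53, adjusted p = 0.0011, limma). Its intervals hold 9.97 kb, so part of the length with KO dexamethasone lay between them. The log2 difference was 0.22 to 0.56 over 31 alternatives. At BLK, a B cell kinase, the cluster of rank 308 had 7.12 ± 0.68 kb with KO dexamethasone and 9.53 ± 0.28 kb with SCR dexamethasone (adjusted p = 0.040, limma). The other, of rank 479, had 6.21 ± 0.85 and 6.30 ± 0.063 kb (log2 difference 0.07, adjusted p = 0.64, limma). The call at rank 308 was lost in 6 of the 9 cases that leave out 1 library, all but replicate 2 of KO dexamethasone and replicates 2 and 3 of KO DMSO (adjusted p up to 0.15), and its log2 difference of -0.31 became 0.14 with clusters built from bases in all 3 SCR DMSO libraries. FOXO3, a target of glucocorticoids, had 18.3 ± 1.6 kb with KO dexamethasone and 20.1 ± 3.1 kb with SCR dexamethasone (adjusted p = 0.96), and BCL2L11, the gene of the death factor BIM, had 2.82 ± 0.82 and 4.39 ± 0.32 kb (adjusted p = 0.20). The difference did not pass at FOXO3 or BCL2L11. The plasma cell clusters at SDC1, TNFRSF13B (ranks 259 and 336) and TXNDC5 did not pass either. SDC1 had 7.77 ± 0.43 kb with KO dexamethasone and 7.29 ± 1.1 kb with SCR dexamethasone (SD, n = 3 each). In the same order, TNFRSF13B had 9.15 ± 2.0 and 10.6 ± 2.8 kb at rank 259 and 8.03 ± 0.93 and 7.62 ± 0.43 kb at rank 336. TXNDC5 had 13.4, 13.2 and 7.58 kb with KO dexamethasone and 13.5, 11.3 and 12.6 kb with SCR dexamethasone.

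The other comparison that uses no SCR DMSO library is dexamethasone against DMSO in KO cells, which asks what 2 h of the drug did to the clusters without CEBPB. With KO dexamethasone, 1 of the 500 clusters was higher than with KO DMSO and 0 were lower by limma at an adjusted p under 0.05, against 0.0745% higher and 0.197% lower of all clusters tested. At an unadjusted p under 0.05 there were 41 (8.2%, against 5.75%). All 3 values with dexamethasone lay above those with DMSO in 23 clusters (4.6%, against 3.58%) and below them in 56 (11.2%, against 5.69%). The median log2 difference was 0.02 in the 500 and 0.03 in all clusters.

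The single call lay at chr16:64207038-64234082, with CDH11, a cadherin gene, as the nearest gene at 710 kb. Peaks covered 2.88, 4.61 and 3.63 kb of it with KO dexamethasone, 0.896, 0.702 and 1.31 kb with KO DMSO, 7.76, 5.20 and 7.65 kb with SCR dexamethasone and 9.85, 7.90 and 8.77 kb with SCR DMSO. KO dexamethasone lay above KO DMSO and below both SCR groups, with no overlap. The log2 difference was 1.56 ± 0.19 (SE; adjusted p = 0.033, limma). Of its 6 intervals, 1 of 2.08 kb had 1562, 1935 and 2075 bp covered with KO dexamethasone against 0, 0 and 304 bp with KO DMSO. Another, of 1.51 kb, had 1251, 988 and 1356 bp with KO dexamethasone against 896, 427 and 1010 bp with KO DMSO. The call rests on single libraries: leaving out 1 library at a time, it was kept without replicate 1 of KO dexamethasone or replicate 3 of KO DMSO and lost in the other 7 cases, with adjusted p up to 0.10 and a log2 difference of 1.42 to 1.70. The call held in 15 of 31 alternatives, and with strong peaks only (−log10 q of at least 2) the CDH11 cluster had a log2 difference of -1.02 (adjusted p = 0.82, limma).

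The clusters of smallest p that did not pass were ADAM23, GNG12, KALRN and ST3GAL6 with higher values and PRR5, FADS2, SMPD3 and SPN with lower ones. ADAM23 had 9.08, 10.8 and 7.65 kb with KO dexamethasone and 5.61, 7.03 and 7.38 kb with KO DMSO, and FADS2, a fatty acid desaturase gene, had 8.19, 9.49 and 6.54 kb with KO dexamethasone and 11.5, 12.9 and 11.1 kb with KO DMSO. The groups did not overlap in either, but the adjusted p was 0.34 and 0.46 (limma). At PRR5, a subunit of mTORC2, the values were 2.68 ± 0.79 kb with KO dexamethasone and 5.32 ± 1.5 kb with KO DMSO (SD, n = 3 each; adjusted p = 0.39, limma). That cluster was also lower with KO than with SCR dexamethasone, where it had 12.4, 11.1 and 9.62 kb (adjusted p = 0.0007, limma).

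**Figure D4:**
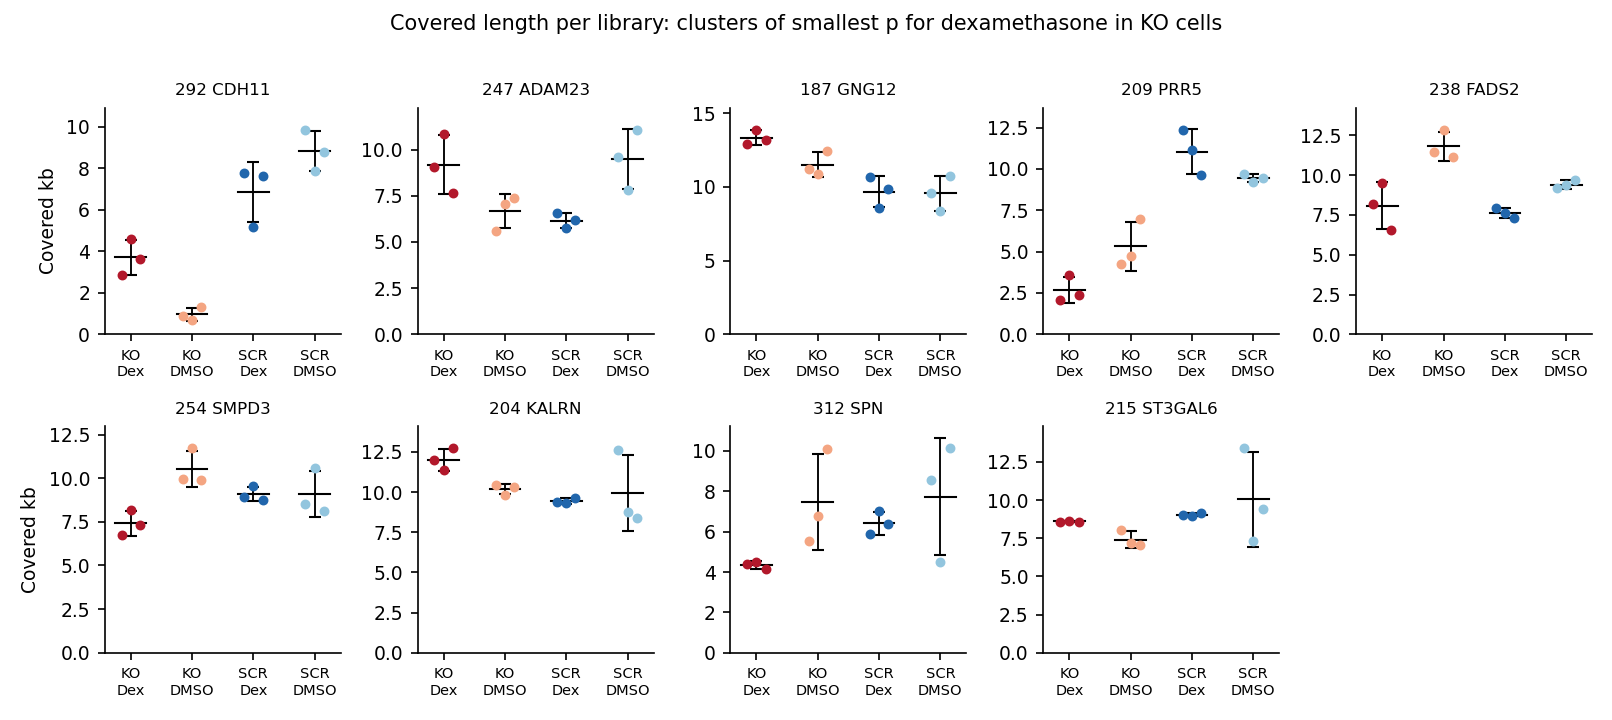
Covered length (kb) per library in the CDH11 cluster and the 8 clusters of smallest p in either direction that did not pass, for KO dexamethasone against KO DMSO. Points are libraries and black lines the mean ± SD, n = 3; in the CDH11 cluster KO dexamethasone lies at 2.88 to 4.61 kb and KO DMSO at 0.702 to 1.31 kb.

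The effect of dexamethasone in SCR cells was not tested, because SCR DMSO chose the clusters and any other group tends to fall below it. As a description, the mean with SCR dexamethasone was below that with SCR DMSO in 372 of the 500 clusters, and the mean with KO DMSO was below that with SCR DMSO in 338. By unnormalised means, KO dexamethasone lay below KO DMSO in 300 clusters and below SCR dexamethasone in 327. On the normalised log2 scale the majority was the other way, with 222 of the 500 below KO DMSO (6814 of all 18793) and 231 below SCR dexamethasone (6232 of 18793). Across all 4 groups, 464 of the 500 clusters (92.8%) had some coverage in all 12 libraries, against 50.8% of the other clusters.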

How the data were processed

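H3K27ac peak lists of 12 CUT&RUN libraries were used, each from 100000 cells per the labels. Per the submitters' processing notes, reads were aligned with Bowtie2 2.4.2 to hg38 and peaks were called with MACS3 3.0. The notes as given here name no control library. The deposited lists give 0-based positions (a unit recorded as other), a score, a fold enrichment (a ratio), and −log10 p and −log10 q; they hold no counts, so depth is unknown and no counting interval is given. The lowest deposited −log10 q per library was 0.523 to 0.535.

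Peaks outside chromosomes 1 to 22 and X (213 to 296 per library) were left out. Gene positions came from RefSeq (GRCh38.p14, 19974 protein-coding genes). Covered bp per cluster span were taken as log2(bp + 500), quantile-normalised over the 9 libraries the rule did not use, and fitted with limma 3.58.1 (trend, robust, 6 residual degrees of freedom) in R 4.3.3. The 18793 clusters covered in at least 3 of the 9 were tested, with Benjamini-Hochberg adjustment over all of them and a threshold of 0.05. Differences on this scale understate the change of low values. All 500 clusters passed the filter, 22 of them with no covered KO library. Others, such as the RYR2 and DSCAM clusters with single short KO peaks, had too few covered KO libraries to pass without SCR dexamethasone. Clusters are not independent where they share a locus. In a simulation of 21613 clusters, KO against SCR recovered 64% of log2 1 changes and 92% of log2 2 changes, with 14 false calls. The dexamethasone comparison recovered 69 and 88%, with 16 false calls. The simulation drew normal noise around a common mean per cluster and changed only some clusters of higher level. All other clusters had no difference between genotypes, so these figures do not give the error rate in the real data.

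Named are ranks 1 to 12, ranks 499 to 502, up to 8 called clusters per direction and comparison, the 4 of smallest p where fewer than 4 were called, the clusters nearest to CEBPB and NR3C1, and up to 3 per gene list. Other clusters are named where a group shared a label or a count was small. The clusters, lists and rules were chosen with earlier results of these data known. Promoters of labels were used in place of cluster sequences; AUTS2's is not beside its cluster. Python 3.11.15, NumPy 2.4.6, pandas 2.3.3 and Matplotlib 3.10.9 were used.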

Additional observations from a re-analysis of the deposited data

How the results depend on the processing

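All 500-cluster counts were recomputed under 28 alternatives planned and 3 added after the data were seen. The 76 lower clusters with KO against SCR dexamethasone became 34 when a cluster had to be covered in 6 of 9 libraries and 41 when clusters were built from 6 of 12 libraries; leaving out 1 library gave 34 to 78. The 34 to 37 without an SCR dexamethasone library follow from the filter of 3 libraries, which clusters empty in KO cells then fail; with a filter of 2 (added) they were 66, 66 and 68. The 25 higher ones became 8 without normalization, 7 after scaling to covered length, 8 with the filter of 6 of 9, 52 at equal covered length, 14 with the replicate block, 56 and 39 at stitching distances of 5 and 25 kb, 15 with no intervals dropped at gene ends, 60 from bases in all 3 SCR DMSO libraries, 38 from 6 of 12 libraries and 57 inside kept intervals only; leaving out 1 library gave 6 to 21 (10 and 11 without replicates 1 and 3 of KO dexamethasone, 7, 6 and 7 without those of SCR dexamethasone, and 17, 19 and 16 for the last with the filter of 2). The cause was not tested. For KO dexamethasone against KO DMSO, the 1 higher cluster became 0 without normalization, with a pseudocount of 2000 bp, with strong peaks only, with 2 groups only, with the replicate block, at 25 kb stitching and with none dropped at gene ends, 3 at 5 kb, 2 from all 3 SCR DMSO libraries and 2 from 6 of 12; leaving out 1 library gave 0 or 1. The 0 lower became 1 without normalization, 1 at equal covered length, 1 inside kept intervals only and 2 at 5 kb.

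Signs turned in 6 cases. With strong peaks only (−log10 q of at least 2), CDH11 had a log2 difference of -1.02 (adjusted p = 0.82, limma; 0.0098 to 0.82 over its alternatives) and PRR5 0.29 between KO dexamethasone and KO DMSO. At 5 kb stitching, GNG12 had -0.0053 and SMPD3 0.019 in that comparison, and IL6R -0.27 between KO and SCR dexamethasone. From all 3 SCR DMSO libraries, BLK had 0.14. SIPA1L2 stayed called lower in 31 alternatives. Same-numbered libraries did not deviate together (correlations of -0.053 to 0.023, against -0.056 to 0.077 for other numbers), so the numbers pair nothing; the replicate block gave 14 higher and 69 lower, and 0 and 0 for dexamethasone. Depth is unknown, so a cluster listed at 0 held no called peak, which does not show that the mark was absent.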
